A study of Mus musculus with 4 samples.

Results

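Hprt and the genes of purine salvage and synthesis were examined on Affymetrix arrays of mouse embryonic stem cells. The genes were Hprt, Aprt, Ada, Adk, Ppat, Gart, Paics, Atic, Adsl and Impdh2, taken as every probe set whose only gene symbol in the platform annotation was one of these. That gave 23 of 45101 probe sets, for 9 of 18193 genes. Impdh2 is not analysed here. Hprt was chosen by its signal in these 4 arrays, as the gene with the largest difference between the genotypes, so its values are given as a description with no test. The other genes were chosen as enzymes of the same pathways. The 2 Suz12KO arrays held RNA of embryonic stem cells labelled as Suz12 knockout, and the 2 WT arrays held RNA of wild-type embryonic stem cells. The Suz12 protein belongs to the core of Polycomb repressive complex 2, a methyltransferase of histone H3. According to the labels, each genotype's RNA was an equal mixture from 3 clones. Nothing states that both arrays of a genotype had RNA of their own, so every p-value measures spread between arrays, which may be technical. The sources used here give no parental cell line, culture conditions or structure of the Suz12 allele.

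Purine nucleotides are made along a de novo route or recovered by salvage, and both draw on phosphoribosyl pyrophosphate (PRPP), an activated ribose. The de novo route builds the ring on PRPP: Ppat makes the committed step, the multifunctional enzymes Gart and Paics and the lyase Adsl carry out steps in between, and Atic closes the ring to inosine monophosphate (IMP). In salvage, Hprt joins hypoxanthine or guanine to PRPP, Aprt joins adenine to it, and Adk phosphorylates adenosine, while Ada removes adenosine by deamination to inosine. Hprt lies on the X chromosome, and loss of its human counterpart causes Lesch-Nyhan disease. In mouse embryonic stem cells it is a classical selection marker, since HAT medium kills cells without the enzyme and thioguanine kills cells with it. It is also widely used as a reference gene in quantitative PCR.

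The array difference of Hprt, chosen for its size, was far from those of Aprt and Atic, which were close together. The promoters of both phosphoribosyltransferases of salvage, Hprt and Aprt, and of Atic are shown. All hold GC boxes, as do those of the other genes. Each is the stretch of 250 bases before the annotated start (RefSeq, GRCm38.p6), at chrX:52987828-52988077 on the plus strand for Hprt, chr8:122576908-122577157 on the minus strand for Aprt and chr1:71556906-71557155 on the plus strand for Atic. Capitals mark the GC box GGGCGG and the E-box CACGTG on either strand, and a pair of GC boxes in Atic overlaps by a base, with no other overlap.
Hprt: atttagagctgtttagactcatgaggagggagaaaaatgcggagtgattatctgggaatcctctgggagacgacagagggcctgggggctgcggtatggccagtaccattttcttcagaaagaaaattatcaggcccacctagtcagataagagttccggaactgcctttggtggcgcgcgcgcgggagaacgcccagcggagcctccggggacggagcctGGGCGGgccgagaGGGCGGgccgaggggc
Aprt: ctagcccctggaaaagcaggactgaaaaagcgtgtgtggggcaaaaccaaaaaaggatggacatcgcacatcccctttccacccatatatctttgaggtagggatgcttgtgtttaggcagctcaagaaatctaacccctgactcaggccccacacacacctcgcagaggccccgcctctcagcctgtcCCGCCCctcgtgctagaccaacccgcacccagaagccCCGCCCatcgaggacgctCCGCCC
Atic: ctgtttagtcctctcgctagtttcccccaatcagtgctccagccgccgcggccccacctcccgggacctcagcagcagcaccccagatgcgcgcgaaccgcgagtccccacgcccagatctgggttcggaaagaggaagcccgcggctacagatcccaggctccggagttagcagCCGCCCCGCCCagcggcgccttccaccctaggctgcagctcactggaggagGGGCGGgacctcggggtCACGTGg
A GC box, a motif bound by Sp1-type factors, stood in all 11 annotated starts of the 10 genes (Adk has 2 starts), and in 32.7% of the 32851 promoters of the table. Hprt had 2 GC boxes, Aprt 3 and Atic 3. The same stretches held 11 to 24 CpG dinucleotides, 17 of them in Hprt, against a median of 6 over all promoters. The E-box, a motif bound by Myc and related factors, was found before the starts of Paics, Atic and Impdh2 and in 6.0% of all promoters. These matches are descriptions of the sequence.

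Signal is on a linear scale with the same trimmed mean in each array as deposited, so only changes relative to the bulk of genes can be seen. Fold changes are Suz12KO over WT on the log2(signal + 16) scale, which understates changes of dim genes. They were tested by limma over 12735 genes, each represented by its brightest probe set, with a call at a Benjamini-Hochberg adjusted p under 0.05. By this rule 1270 genes (9.97%) differed, 570 (4.48%) higher and 700 (5.50%) lower in Suz12KO, with a median log2 fold change of 0.04 over all tested genes. Centring each array on its median moved that median to -0.13 and the counts to 294 higher and 1243 lower. Bacterial spike probe sets taken as unused reached 174 to 195 in the Suz12KO arrays and 141 to 191 in the WT arrays, which marks what background alone can give. The array medians, on which centring rests, were 201.6 and 190.8 in Suz12KO and 174.9 and 170.9 in WT. These medians lie near the spike signals, so centring aligned the arrays at a level close to background. The targeted gene, Suz12, read 217 and 369 in Suz12KO and 1097 and 1094 in WT. Suz12 fell by 1.89 on the log2 scale (SE 0.27, limma adjusted p = 0.0021), but averaging all of its probe sets ended that call (-1.67, adjusted p = 0.060). Tested one by one, its probe sets at -1.89, -1.83 and -3.07 passed (limma adjusted p 0.00325, 0.00110 and 0.0334). The average takes in dim ones too, such as one at 51.1 and 56.1 in Suz12KO and 55.8 and 56.1 in WT. The stem cell factor Pou5f1 read 11657 and 11832 in Suz12KO and 7418 and 7097 in WT (log2 fold change 0.69). Nanog, with the largest rise of the stem cell markers listed, read 8061 and 8446 in Suz12KO and 1932 and 2055 in WT (2.04). Lin28a did not pass (-0.14). Of 10 stem cell markers 9 rose, with summed signals of 127219 and 131754 in Suz12KO and 77453 and 77001 in WT. Of 19 fibroblast markers on the array 14 were bright enough to be tested, and 9 fell and 1 rose. Their summed signal was 37458 and 37478 in Suz12KO and 101078 and 100232 in WT. The brightest of them in WT were Acta2 (33742 and 33855), Tagln (20226 and 21055), Sparc and Fn1. By contrast, Dcn, Lum, Postn and Pdgfrb lay within the range of unused spikes in both genotypes. Thy1 (log2 fold change 0.41) and Pdgfra (-0.47) did not pass. Of 19 cell division genes 6 rose and 0 fell, with summed signals of 134340 and 138119 in Suz12KO and 114172 and 118548 in WT. The part of these shifts in the results for purine genes was not tested, and in pooled RNA fewer cells of a type and less RNA per cell cannot be told apart.

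Hprt was far higher in Suz12KO, whereas most of the other purine enzymes lay within a small range of their WT level. Its single probe set read 6994 and 6746 in Suz12KO and 263 and 141 in WT. Both Suz12KO arrays were far above both WT arrays, and WT replicate 2 was no brighter than the unused spikes of that array, which reached 191. The means were 6870 ± 176 in Suz12KO and 202 ± 86.3 in WT (SD, n = 2 each), a log2 fold change of 5.04 (SE 0.23), or 32.9-fold. It was the largest fitted value among the 12735 tested genes, some of which lie within the spike range in WT and have only a bound. The size depended on which WT array was used: leaving out WT replicate 1 gave a log2 value of 5.46 and leaving out WT replicate 2 gave 4.63, the highest and lowest of all settings tried. The probe set carries an a suffix, which on this array design marks probes shared by several transcripts of the same gene. No second Hprt probe set was there to check it.

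**Figure D1:**
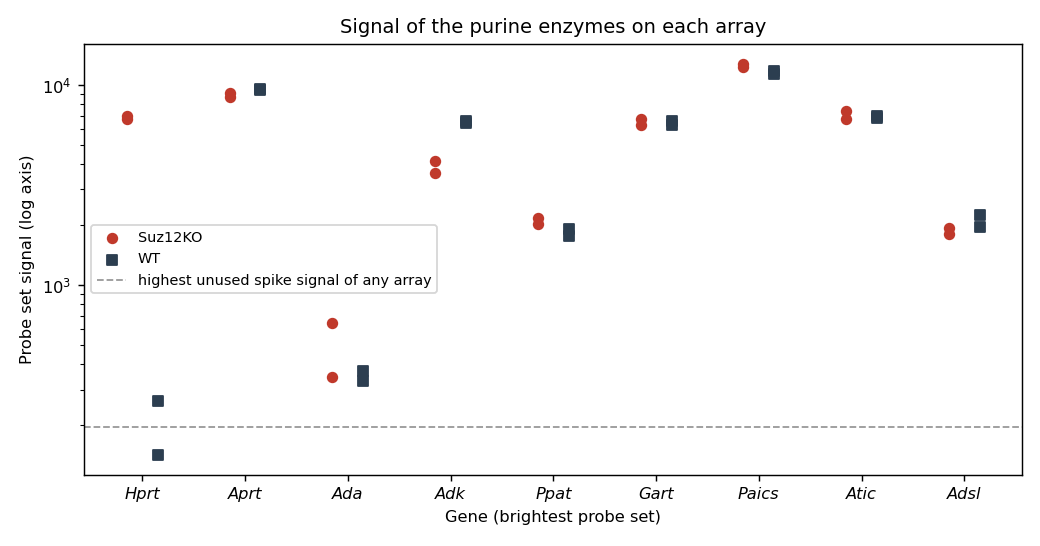
Signal of the brightest probe set of each measured purine enzyme (log axis), with the 2 Suz12KO arrays as circles, the 2 WT arrays as squares and the highest unused spike signal of any array (195) as a dashed line. Hprt reads 6994 and 6746 in Suz12KO and 263 and 141 in WT, and Adk is the other gene with a visible gap; signals of different genes are not comparable.

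All 8 other enzymes with a probe set were bright enough to be tested. Of these, 0 rose and 1 fell, Adk, which is 12.5% of the 8 beside 5.50% lower calls among all tested genes. Their median log2 fold change was 0.03, beside 0.04 over all genes. The arrays of the genotypes did not overlap for 5 of the 8 (62.5%), beside 52.9% among all genes tested. The others did not pass the test, which does not show that they were unchanged, so the 95% interval of each difference is given below.

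Among the salvage enzymes, Adk fell. Its brightest probe set, with an x suffix that marks probes possibly shared with unrelated sequences, read 3624 and 4144 in Suz12KO and 6428 and 6612 in WT. Both Suz12KO arrays lay below both WT arrays. The log2 fold change was -0.75 (SE 0.08, limma adjusted p = 5.31e-04, 95% interval -0.94 to -0.56), so that WT was 1.68-fold brighter. A second Adk probe set, one with no suffix, had 1183 and 1223 in Suz12KO and 1832 and 2188 in WT (-0.73, limma adjusted p = 0.0106 when all probe sets were tested one by one). These 2 bright probe sets thus moved together.

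The 4 dim Adk probe sets did not follow a single pattern. One read 45.6 and 77.4 in Suz12KO, no brighter than unused spikes, and 362 and 284 in WT, which makes Suz12KO at least 1.68-fold lower (adjusted p = 0.0641). Another ran the opposite way, with 202 and 318 in Suz12KO and 18.3 and 53.2 in WT, the WT arrays being within the spike range. That probe set was at least 1.49-fold higher in Suz12KO (adjusted p = 0.109). One more read 116 and 261 in Suz12KO and 187 and 215 in WT, with overlapping arrays. The last, at 30.8 and 49.2 in Suz12KO and 277 and 21.7 in WT, was too dim to be tested. Averaging all 6 probe sets gave -0.38 and ended the Adk call (limma adjusted p = 0.539), as did a fit without dependence of the variance on signal (adjusted p = 0.155), in which 0 genes in all were called. In the RefSeq annotation Adk has 2 starts 23.6 kb apart, and the files do not say which transcript each probe set reads.

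Aprt, the salvage enzyme most like Hprt in its reaction, differed little. Its brightest probe set read 8719 and 9054 in Suz12KO and 9462 and 9444 in WT, a log2 fold change of -0.09 (SE 0.06, limma adjusted p = 0.414, 95% interval -0.22 to 0.04). A second Aprt probe set, with an s suffix that marks possible matches to related transcripts, read 6894 and 6959 in Suz12KO and 8848 and 9366 in WT. Both Suz12KO arrays were lower than both WT arrays on each probe set. Only the second passed when all 24461 probe sets above the filter were tested one by one (-0.39, limma adjusted p = 0.0081), a test in which 6.81% of probe sets were called. In that test 3 of the 20 probe sets of the 8 enzymes that were bright enough passed, all lower, and they belonged to Adk and Aprt.

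Ada, the deaminase that drains adenosine, read 348 and 645 in Suz12KO and 330 and 373 in WT. Suz12KO replicate 1 lay between the WT arrays, and the difference rested on the other Suz12KO array. The log2 fold change of 0.42 (SE 0.33, limma adjusted p = 0.502, 95% interval -0.33 to 1.17) became -0.01 without Suz12KO replicate 2.

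The de novo enzymes gave no call. Of 6 genes, Ppat, Gart, Pfas, Paics, Adsl and Atic, 0 rose and 0 fell, beside 9.97% called among all tested genes. With so few genes, a count of 0 is near that background. Their log2 fold changes lay between -0.16 and 0.18 with a median of 0.03, beside 0.04 over all genes. Ppat, the amidotransferase that commits PRPP to the route, read 2153 and 2014 in Suz12KO and 1758 and 1905 in WT (0.18, SE 0.11, limma adjusted p = 0.346, 95% interval -0.06 to 0.43). A second Ppat probe set ran the other way, with 953 and 1084 in Suz12KO and 1164 and 1270 in WT (-0.26, adjusted p = 0.386). The arrays of the genotypes did not overlap on either, so these Ppat probe sets disagree in direction. The remaining Ppat probe set, at 106 and 9.07 in Suz12KO and 80.0 and 6.75 in WT, was too dim to be tested.

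Paics read 12303 and 12742 in Suz12KO and 11315 and 11755 in WT, a log2 fold change of 0.12 (SE 0.06, limma adjusted p = 0.254, 95% interval -0.01 to 0.25). Both Suz12KO arrays were above both WT arrays, by a small margin. A second Paics probe set did the same (0.19, adjusted p = 0.130), and the remaining one, with an x suffix, read 4070 and 6310 in Suz12KO and 5968 and 5746 in WT. In the GRCm38.p6 annotation Ppat and Paics run in opposite directions from starts whose gene spans share 277 bases. After centring the arrays, Paics stood at -0.049 on the log2 scale.

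Gart read 6266 and 6766 in Suz12KO and 6555 and 6273 in WT, with overlapping arrays and a log2 fold change of 0.02 (SE 0.07, limma adjusted p = 0.896, 95% interval -0.14 to 0.18; -0.15 after centring). Of its other 3 probe sets, one was higher in both Suz12KO arrays, at 3243 and 3220 in Suz12KO and 2679 and 2492 in WT, but did not pass (0.32, adjusted p = 0.0772). The remaining ones had 0.08 and 0.00. Atic, the bifunctional enzyme that completes IMP, read 7378 and 6771 in Suz12KO and 7001 and 6824 in WT (0.03, SE 0.07, limma adjusted p = 0.835, 95% interval -0.12 to 0.19; -0.14 after centring). The other Atic probe set stood at -0.09 on the log2 scale. Adsl, which acts in the de novo route and again in making AMP, read 1796 and 1922 in Suz12KO and 1940 and 2230 in WT. Both Suz12KO arrays of Adsl were below both WT arrays, but the difference did not pass (-0.16, SE 0.11, limma adjusted p = 0.437, 95% interval -0.42 to 0.09).

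**Figure D2:**
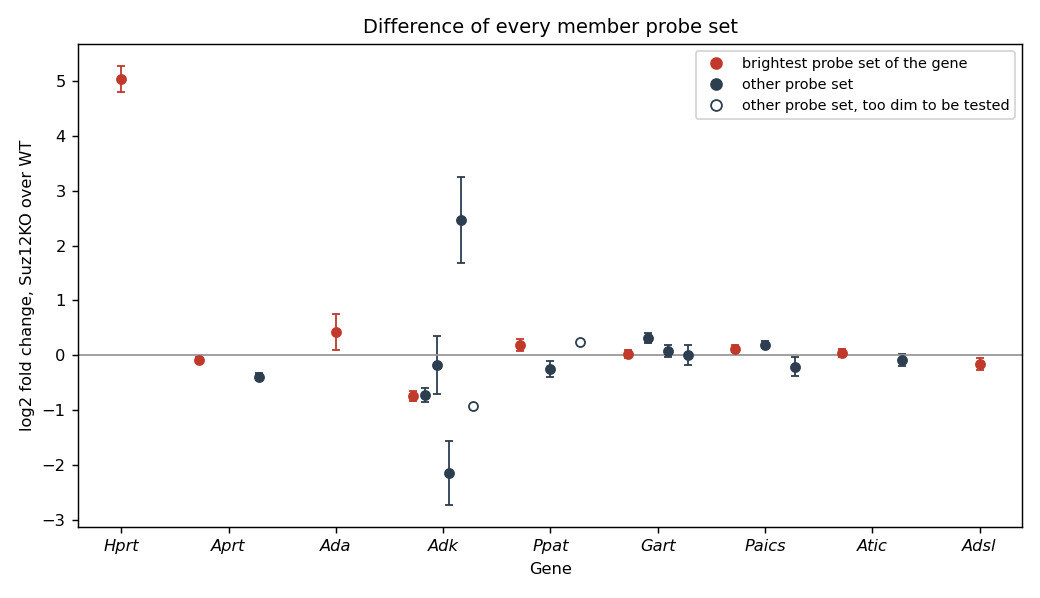
Log2 fold change, Suz12KO over WT, of all 23 probe sets by gene, with bars of 1 standard error from the fit over all probe sets; the brightest probe set of each gene is red, and probe sets too dim to be tested are open circles without bars. Hprt stands at 5.04, the 2 bright Adk probe sets at -0.75 and -0.73, and the dim Adk probe sets lie on both sides of 0. Of the dim ones, those tested with one genotype in the spike range have only the bounds of at least 1.68-fold lower and at least 1.49-fold higher. The Adk probe set too dim to be tested has no bound.

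The wider pathway held a few further changes, in both directions. Of 41 tested genes beyond the members, from PRPP synthesis to nucleotide kinases, 3 rose and 3 fell (14.6%, beside 9.97% of all tested genes), with a median log2 fold change of -0.04. Together with the 8 enzymes above, 3 of 49 rose and 4 fell. After centring the arrays these were 3 higher and 11 lower, beside 294 higher and 1243 lower among all tested genes.

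PRPP is made by the synthetases Prps1 and Prps2, both X-linked like Hprt. Prps2 fell, with 1230 and 1130 in Suz12KO and 1993 and 1891 in WT (-0.71, SE 0.12, limma adjusted p = 0.00525). Its other probe sets had -0.35 and -0.04, and averaging them ended the Prps2 call (-0.37, adjusted p = 0.198). Prps1 read 4325 and 3719 in Suz12KO and 3068 and 3377 in WT, above WT in both arrays, but did not pass (0.32, adjusted p = 0.0805). Of the 4 tested genes of PRPP synthesis, 0 rose and 1 fell (25%, beside 9.97% of all tested genes).

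Beyond IMP, 0 of the 3 tested genes of the AMP and GMP branches passed, beside 9.97% of all tested genes. With so few genes, that count is near the background. Gmps, which makes GMP, read 6210 and 6749 in Suz12KO and 7666 and 7368 in WT (-0.21, limma adjusted p = 0.0928), and Adss, which starts the AMP branch, had -0.13 (adjusted p = 0.296). Both passed after centring (-0.38 and -0.30, adjusted p 0.0180 and 0.0484). Of the 5 tested salvage genes other than Hprt, Adk fell and 4 did not pass (20% called, beside the same 9.97%). Their median log2 fold change was -0.49, beside 0.04 over all genes, with 4 values negative and 1 positive. Dguok (-0.73, limma adjusted p = 0.247) and Dck (-0.49, adjusted p = 0.151) were among those that did not pass.

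Among 14 tested genes of purine breakdown, 1 rose and 2 fell (21.4%, beside 9.97% of all tested genes). Urah, which acts on a product of urate, rose by 0.87 (SE 0.18, limma adjusted p = 0.0150), with 1556 and 1445 in Suz12KO and 685 and 967 in WT. The call of Urah was lost without WT replicate 1 (0.62, adjusted p = 0.0572). Nt5e, the cell-surface nucleotidase CD73 that makes adenosine from AMP, fell, with 145 and 336 in Suz12KO and 706 and 655 in WT. One of its Suz12KO arrays lay within the spike range, and both were below WT (-1.55, SE 0.38, limma adjusted p = 0.0326). Ampd2, an AMP deaminase, fell by 0.46 on a probe set with an x suffix (SE 0.09, adjusted p = 0.0105), with 2239 and 2325 in Suz12KO and 3197 and 3107 in WT. Its other probe set did not follow (0.11), and read 1499 and 1218 in Suz12KO and 1343 and 1166 in WT. The calls of Nt5e and Ampd2 were lost without WT replicate 1 or without WT replicate 2 (adjusted p 0.0525 to 0.129). Averaging probe sets ended both as well (Nt5e -0.91, adjusted p = 0.423, and Ampd2 -0.18, adjusted p = 0.400), and Nt5e was also lost with no filter on dim genes (adjusted p = 0.0679). A dim Nt5e probe set ran the other way, with 103 and 177 in Suz12KO and 245 and 30.8 in WT (0.45, adjusted p = 0.833). Without WT replicate 1, and likewise without WT replicate 2, 2 genes of the wider pathway were called lower, Adk and Prps2.

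The nucleoside transporter Slc29a1, which carries adenosine across the plasma membrane, rose most among the called genes of the wider purine pathway. It read 2333 and 2414 in Suz12KO and 797 and 900 in WT (1.47, SE 0.13, limma adjusted p = 1.09e-04). All of its Suz12KO signals lay above WT, and it was the 1 of 4 tested transporters that passed (25%, beside 9.97% of all tested genes). Among 13 nucleotide kinases and reductase subunits 1 passed (7.69%, beside 9.97% of all tested genes). It was Ak4, a mitochondrial adenylate kinase, which rose, with 2106 and 2486 in Suz12KO and 1238 and 1230 in WT (0.88, SE 0.12, limma adjusted p = 0.00189). A second Ak4 probe set changed alike (0.94, adjusted p = 0.00642), but the mean of its 5 probe sets did not pass (0.61, adjusted p = 0.437). The kinase Nme1 had -0.21 on its brightest probe set (adjusted p = 0.0714), while another Nme1 probe set, of the kind that can read related sequences, gave 2626 and 3237 in Suz12KO and 6245 and 8493 in WT. That Nme1 probe set passed when all were tested one by one (-1.32, limma adjusted p = 8.36e-04), and the mean of both Nme1 probe sets was called lower. Rrm2 had 0.04 on its brightest probe set, and in the same test another Rrm2 probe set passed as higher (0.28, limma adjusted p = 0.0395).

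Pyrimidine genes, taken as a comparison, held 1 rise and 0 falls among 17 tested (5.88%, beside 9.97% of all tested genes). The rise was that of Upp1, a uridine phosphorylase of pyrimidine salvage, which read 10692 and 10037 in Suz12KO and 4441 and 4218 in WT (1.26, SE 0.07, limma adjusted p = 1.01e-05). The list median was 0.24, beside 0.04 over all genes. Dtymk did not pass on its brightest probe set (0.35, limma adjusted p = 0.194). Its other probe sets passed as higher when all were tested one by one (0.42 each, limma adjusted p 0.0365 and 0.0256).

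**Figure D3:**
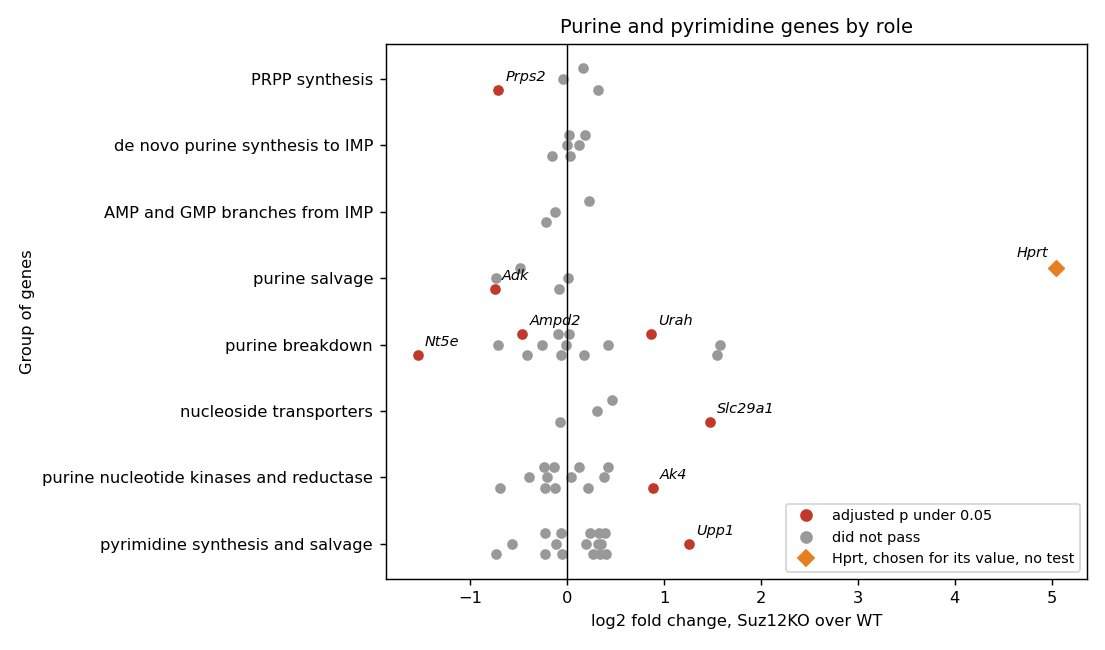
Log2 fold change, Suz12KO over WT, of the tested genes of purine and pyrimidine metabolism by role, with 1 point per gene; red points passed limma at an adjusted p under 0.05 and the diamond is Hprt, which was not tested. The 6 de novo genes lie between -0.16 and 0.18, while Slc29a1 (1.47), Upp1 (1.26), Ak4 (0.88) and Urah (0.87) lie to the right and Nt5e (-1.55), Adk (-0.75), Prps2 (-0.71) and Ampd2 (-0.46) to the left.

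The genes around Hprt on the X chromosome gave no call. Of 14 other genes on the array that start within 1 Mb of Hprt in the GRCm38.p6 annotation, limma tested the 7 bright enough and called 0, with a median log2 fold change of -0.48, beside 9.97% called and a median of 0.04 over all genes. With so few genes, a count of 0 is near that background. The next measured gene on one side, Phf6, a chromatin-associated protein gene, read 265 and 514 in Suz12KO and 512 and 542 in WT (-0.49, adjusted p = 0.415). The next on the other side, Plac1, known for its role in placenta, read 315 and 284 in Suz12KO and 252 and 179 in WT (0.46, adjusted p = 0.534). Both differences were smaller than that of Hprt, which follows from its choice as the gene with the largest difference.

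Mospd1 read 65.2 and 122 in Suz12KO, within the spike range, and 387 and 320 in WT, and did not pass (at least 1.84-fold lower in Suz12KO, adjusted p = 0.0636). The heparan sulphate proteoglycan gene Gpc4 read 1943 and 2582 in Suz12KO and 3818 and 2820 in WT (-0.55, limma adjusted p = 0.0718). Its second probe set, with 1286 and 1117 in Suz12KO and 2501 and 2570 in WT, was lower by more (-1.07, adjusted p = 8.59e-04 with all probe sets tested one by one). The average of both Gpc4 probe sets passed (-0.81, adjusted p = 0.00838). Gpc3 (-0.48), Ccdc160 (0.68) and Fam122b (0.62) did not pass. Over the whole X chromosome without Hprt, 44 of 415 tested genes rose and 30 fell (17.8%), beside 9.71% of 12252 autosomal genes. The median log2 fold changes were 0.13 for X-linked and 0.03 for autosomal genes. The cause was not tested.

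**Figure D4:**
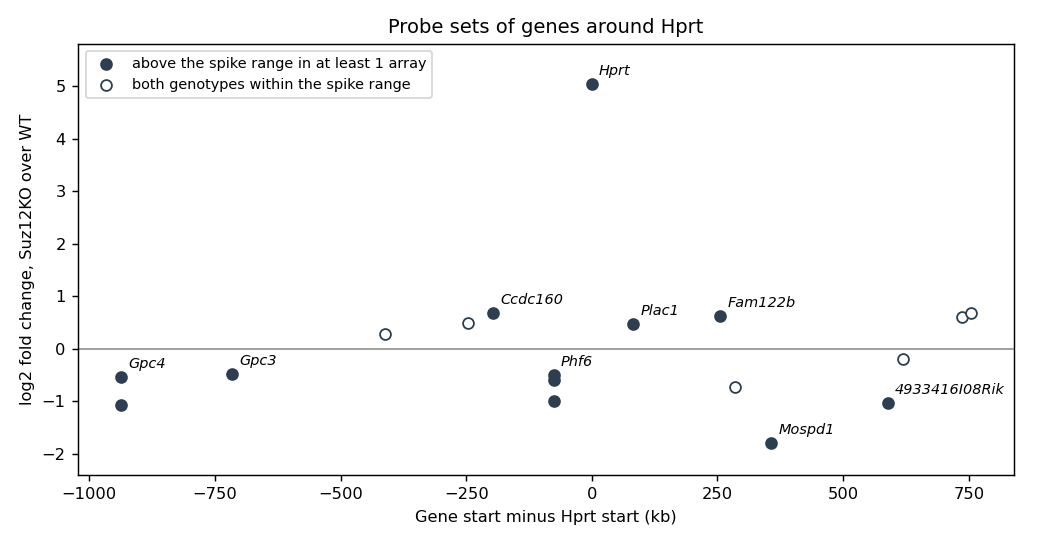
Log2 fold change, Suz12KO over WT, of every probe set of genes that start within 1 Mb of Hprt, against the distance of the gene's start from that of Hprt in kb; open circles are probe sets within the spike range in both genotypes. Hprt stands at 5.04, and the brightest probe sets of the tested genes other than Mospd1 run from -0.55 (Gpc4) to 0.68 (Ccdc160); Mospd1, in the spike range in Suz12KO, has only a bound of at least 1.84-fold lower.

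Adk and Gart have a gene close by that runs the opposite way, and these neighbours were chosen for their position after the values were seen. Ap3m1, a subunit of a vesicle adaptor complex whose span ends 20 bases from that of Adk, read 1314 and 1275 in Suz12KO and 1323 and 1460 in WT. Both Suz12KO arrays were slightly lower, and the difference did not pass (-0.10, SE 0.13, limma adjusted p = 0.693). Son, a splicing cofactor gene 851 bases from Gart, had -0.20 (SE 0.10, adjusted p = 0.259).

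Other genes used as references in quantitative PCR are given beside Hprt, which exceeds any such list because it was chosen for the largest difference. Of 13 others that were tested 2 rose and 2 fell (30.8%, beside 9.97% of all tested genes), and the log2 fold changes ran from -1.07 to 0.19. B2m, the light chain of MHC class I, fell, with 1576 and 2063 in Suz12KO and 3292 and 4398 in WT (-1.07, SE 0.16, limma adjusted p = 0.00275). Ywhaz, a 14-3-3 protein gene, fell by 0.25 (SE 0.06, adjusted p = 0.0307). The Ywhaz call was lost without WT replicate 1 (adjusted p = 0.156), without Suz12KO replicate 1 (0.105), with no filter on dim genes (0.0589) and with all probe sets tested one by one (0.0508). The translation factor Eef1a1 rose by 0.19 and the glycolytic, X-linked Pgk1 by 0.17 (adjusted p 0.0253 and 0.0414), and both calls ended under quantile normalization (0.00 and -0.011) and centring (0.03 and 0.0068). The Eef1a1 call was also lost without WT replicate 2 (adjusted p = 0.225), without Suz12KO replicate 1 (0.0632) and with no filter (0.122). The Pgk1 call was also lost without WT replicate 1 (adjusted p = 0.182), without WT replicate 2 (0.187), without Suz12KO replicate 1 (0.149), with no filter (0.137), without suffixed probe sets (0.222), with all probe sets tested one by one (0.0723) and with averaged probe sets (0.07, adjusted p = 0.455).

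The remaining reference genes did not pass. Actb had 0.12, Rpl13a 0.12 and Tfrc 0.09, and these became -0.045, -0.051 and -0.082 after centring. Sdha had -0.21, Gusb -0.18, Rplp0 -0.17, Alas1 -0.16, Polr2a -0.14 and Tbp -0.13. After centring Sdha and Rplp0 passed as lower (-0.37 and -0.34, limma adjusted p 0.0215 and 0.0159), and Rplp0 also under quantile normalization (-0.36, adjusted p = 0.00322). That all of these are smaller than the 5.04 of Hprt follows from how Hprt was chosen.

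**Figure D5:**
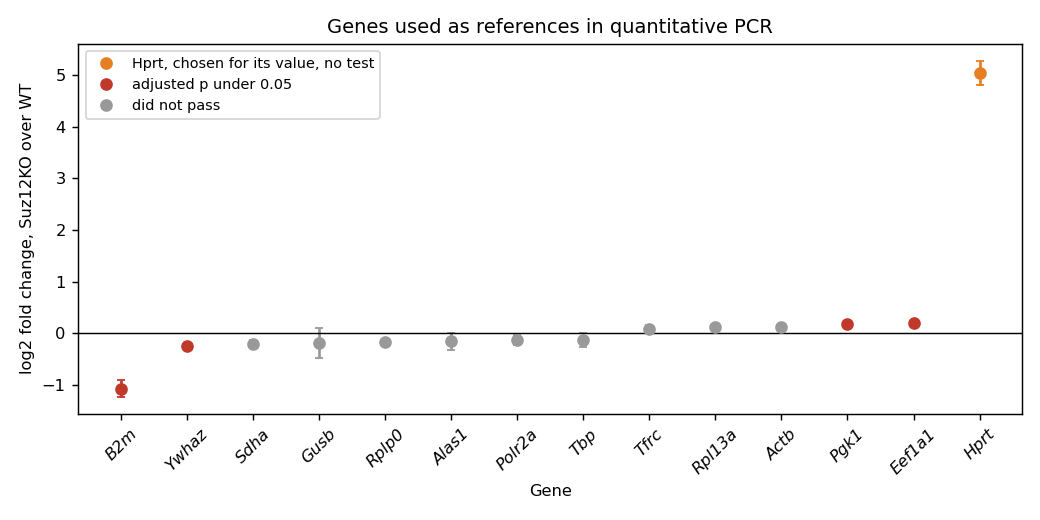
Log2 fold change, Suz12KO over WT, of 14 genes used as references in quantitative PCR, in rising order, with bars of 1 standard error from limma. The 13 genes other than Hprt lie between -1.07 (B2m) and 0.19 (Eef1a1), and Hprt lies at 5.04.

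The genes whose values over the 4 arrays were most like those of Hprt were Calcoco2, Aire, Galnt6, Rhox5 and Oas1a. Likeness was the Euclidean distance between log2(signal + 16) values, each minus the gene's own mean over the arrays, and it is a description of the same contrast that chose Hprt. Calcoco2, an autophagy receptor gene, was nearest at 1.23, with 3554 and 3559 in Suz12KO and 358 and 151 in WT. In both Calcoco2 and Hprt, WT replicate 1 was the brighter WT array. The others lay at 1.59 (Aire), 1.81 (Galnt6), 1.88 (Rhox5, X-linked like Hprt) and 2.32 (Oas1a), and the WT signals of Aire, Galnt6 and Oas1a lay within the spike range. No purine enzyme was among these 5. That was fixed by the measure, since the other members had log2 fold changes of -0.75 to 0.42 beside 5.04 for Hprt.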

How the data were processed

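The authors deposited 1 linear intensity per probe set and array (2 Suz12KO and 2 WT arrays, grouped by title), scaled to one trimmed mean per array (500.003 in each, without the lowest and highest 2% of values). The sources used here do not name the summarisation software. Symbols came from the platform annotation, and 932 probe sets with several symbols and 9160 with none were left out. Values were tested as log2(signal + 16) with limma 3.58.1 in R 4.3.3 (lmFit, eBayes with trend, two-sided, Benjamini-Hochberg adjustment over 12735 genes), after dropping genes whose mean level was below the 30th percentile. A fold was given as "at least" where both arrays of one genotype were no brighter than the brightest of 27 unused spike probe sets. The procedure, tested on simulated data for Suz12KO against WT with 12735 genes, recovered 27% of 2-fold and 69% of 4-fold changes, with 6 of 102 calls false. The number of arrays limits the precision. Replicate numbers did not pair the arrays (correlation of deviations 0.02). The members and lists were chosen with earlier results of these data known; named genes were all members, reference genes and tested genes around Hprt, Suz12, the 5 genes nearest to Hprt in pattern, and per list the 3 largest rises and falls that passed or else the 2 brightest genes. Prps1, Nme1, Rrm2, Dtymk, Dck, Dguok, Pou5f1, Lin28a, Ap3m1 and Son fall outside this rule and were chosen after their values were seen. The fibroblast markers named other than Acta2 also fall outside it, and Pfas is named only to complete its list. Some genes that the rule picks from the stem cell, fibroblast, cell division and PRC2 lists are not named. Promoters are from RefSeq, GRCm38.p6. Figures used matplotlib 3.10.9 in Python 3.11.15. Alternatives are given in the closing section.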

Additional observations from a re-analysis of the deposited data

How the results depend on the processing

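Over 16 alternative settings, 597 of 685 values of the 44 named genes kept their direction and side of the threshold, 47 lost a call, 20 gained one and 21 turned direction. Without dependence of the variance on signal limma called 0 genes, including 0 members, 0 higher and 0 lower in the wider pathway. At an unadjusted p under 0.05 with that dependence, 1511 genes were higher and 1455 lower. The fall among the members, that of Adk, also went to 0 with the mean of all probe sets (Adk -0.38), and 2 members had a lower probe set when each was tested. In the wider pathway centring gave 11 lower, beside 1243 lower among all genes, and the mean of all probe sets 1 lower (Nme1), beside 306. Among all genes the main fit called 570 higher and 700 lower, and the replicate block 1016 higher and 1082 lower. In the wider purine pathway the replicate block gave 5 higher and 10 lower. Leaving out 1 array gave 2 to 4 higher and 2 to 5 lower there, 1 lower among the members each time, and 0 to 1 higher (Fam122b without Suz12KO replicate 1) and 0 to 2 lower around Hprt (Gpc4 and Mospd1 without Suz12KO replicate 2, Gpc4 without WT replicate 2). Around Hprt 2 were lower after centring and with the replicate block, beside 1243 and 1082 lower among all genes. Near Hprt 1 was lower with the 50th percentile filter, the mean of probe sets or all probe sets tested. Among all genes these settings gave 769, 306 and 713 lower. Directions turned after centring for Gart (-0.15), Paics (-0.049), Atic (-0.14), Actb (-0.045), Rpl13a (-0.051) and Tfrc (-0.082), and under quantile normalization for Pgk1 (-0.011), Actb (-0.078) and Rpl13a (-0.055). Averaging probe sets turned Atic (-0.029), Tbp (0.24) and Alas1 (0.19), and leaving out those with an s, x or a suffix turned Ppat (-0.26), Ampd2 (0.11) and Actb (-0.019) and left no value for Hprt. Leaving out 1 array gave -0.011 to 0.85 for Ada, -0.033 to 0.077 for Gart (-0.0098 without WT replicate 2), -0.030 to 0.094 for Atic, -0.42 to 0.053 for Gusb and -0.0018 to 0.17 for Tfrc. The cause was not tested. The weak WT signal of Hprt, near the unused spikes, limits the precision of its fold.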
